A study of Mus musculus with 9 samples.

Results

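A set of 10 genes of the Bcl2 family, whose proteins decide at the mitochondrion whether a cell survives or dies, was followed in mouse bone marrow-derived macrophages (BMDMs) given the matrix protein tenascin C (TNC) with or without an inhibitor of Toll-like receptor 4 (TLR4). They were chosen by name, with earlier results of these data known: Bcl2, Bcl2l1, Mcl1, Bax, Bak1, Bcl2l11, Bid, Pmaip1, Bbc3 and Bnip3. A member was read from the array probe sets that the platform table gives to that gene symbol alone, which left 9 of the 10 members with 28 of the 45037 probe sets tested. For Bax no such probe set was found, so its level was not analysed here.

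The cells came from BALB/c mice of 8 to 10 weeks, were grown from marrow for 7 days in M-CSF and were held overnight in medium with 1% serum. The 9 arrays formed 3 groups of 3. Untreated cells have no addition named in their labels. TNC + vehicle cells were exposed to recombinant TNC at 2 µg/ml for 6 h, after 1 h in 0.1% DMSO, and TNC + TLR4i cells had the same TNC after 1 h in 3 µM TAK-242, a small-molecule blocker of TLR4 signalling. Neither vehicle alone nor inhibitor alone is among the arrays, so TNC and vehicle cannot be told apart in the comparison with untreated cells. Between TNC + TLR4i and TNC + vehicle, an effect of the inhibitor apart from TNC cannot be told from a block of the TNC signal. Replicates are labelled as biological, with no word on whether they came from separate mice. Values are log2 signals of a microarray after robust multiarray averaging (RMA), on which a difference of 1 is a doubling, and the median over all probe sets and arrays was 6.73.

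Proteins of the Bcl2 family share short homology domains named BH. The pro-survival members Bcl2, Bcl2l1 (Bcl-xL) and Mcl1 hold the effectors Bax and Bak1 in check, and the BH3-only members, among them Bcl2l11 (Bim), Bid, Pmaip1 (Noxa) and Bbc3 (Puma), are sensors of stress that bind the pro-survival members or activate the effectors. Once active, Bax and Bak1 open the outer mitochondrial membrane, cytochrome c leaves and caspases are switched on, while Bnip3, an atypical member, is best known for the removal of mitochondria under low oxygen.

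Macrophage identity and the state of the arrays were checked first. The 10 macrophage markers had a mean signal of 11.49 to 11.67 in every array, while the means of the T cell, B cell and erythroid markers lay between 6.50 and 6.77. Single macrophage markers moved in opposite directions with TNC. Fcgr1 rose 1.91-fold (limma adjusted p = 1.6e-05) and Cx3cr1 fell 2.37-fold (limma adjusted p = 1.5e-06). Marco, at 6.60 in untreated cells, lay under the median of all values. Neutrophil markers had means of 7.01 to 7.55. In untreated cells single fibroblast markers ran from Lum at 6.49, under the median of all values, to Col1a2 at 13.28. The means of the fibroblast markers were well above those of the neutrophil markers, at 9.54 to 9.96. The highest of these means was that of TNC + vehicle replicate 1, and the other TNC + vehicle arrays reached at most 9.72. In that replicate 6 of 7 fibroblast markers exceeded their mean over the other TNC + vehicle arrays. The mean of the endothelial markers was 6.65 to 6.66 in untreated and 6.57 in TNC + TLR4i arrays. In TNC + vehicle it was 7.48 in replicate 1 and 6.89 to 6.90 in the others. With TNC 8 of the 10 endothelial markers did not reach a limma adjusted p under 0.05. Of these 10 markers, 9 were higher in TNC + vehicle replicate 1 than their mean over the other TNC + vehicle arrays. Kdr, a receptor for vascular endothelial growth factor, rose 3.10-fold with TNC (limma adjusted p = 3.53e-06) and was 3.88-fold lower with the inhibitor than with vehicle (limma adjusted p = 5.45e-07), and all 3 TNC + vehicle arrays lay above the other 6, of which the highest was at 7.84. The 3′ minus 5′ signal of the actin control, a sign of RNA quality, lay at 0.29 to 0.32 for untreated arrays. It was 0.30 to 0.37 for TNC + TLR4i arrays and lower, at 0.20 to 0.22, for TNC + vehicle arrays. GAPDH, another control read in this way, did not set TNC + vehicle arrays apart, at -0.33 to -0.30. Their range overlapped that of untreated arrays, -0.35 to -0.33, and that of TNC + TLR4i arrays, -0.32 to -0.26. Whether these differences bear on the Bcl2 family was not tested, but values without TNC + vehicle replicate 1 are given beside the results for Bcl2l11, Bak1, Bid and Pmaip1, the members that passed a test at their brightest probe set. In bulk RNA, fewer cells of a type and less RNA per cell cannot be told apart. Tnf, a cytokine induced through TLR4, was at 7.55 ± 0.10 (SD, n = 3) in untreated, 10.22 ± 0.15 in TNC + vehicle and 7.43 ± 0.09 in TNC + TLR4i cells. Tlr4 itself was at 11.29 ± 0.06, 10.92 ± 0.10 and 11.31 ± 0.05 in the same order.

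Among the members, the BH3-only gene Bcl2l11 fell with TNC, and the effector Bak1 and the BH3-only gene Bid rose. All 3 differences ran the other way when the TLR4 inhibitor was added. At their brightest probe sets the pro-survival genes Bcl2, Bcl2l1 and Mcl1 did not pass the test, although other probe sets of Bcl2l1 and Mcl1 did. Pmaip1 did not pass with TNC and was lower with the inhibitor than without it, and Bbc3 and Bnip3 passed in neither comparison.

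A gene was called when its limma adjusted p was under 0.05 and its difference was at least 1.5-fold, and each gene was represented by its brightest probe set. In TNC + vehicle against untreated, 1 of the 9 members was called, in the lower direction, where 7.78% of all 18193 genes were called and 4.05% were called lower. By the test alone 3 members passed, where 28.1% of all genes did, and the median difference of the members was 0.01 against 0.01 for all genes. In TNC + TLR4i against TNC + vehicle, 1 member was called, in the higher direction, where 8.30% of all genes were called and 4.25% were called higher, and 4 passed the test alone, where 28.5% did. The median difference there was -0.02 for the members and 0.00 for all genes. In TNC + TLR4i against untreated 0 members were called by limma, where 0.258% of all genes were called, 0 passed the test alone, where 0.803% did, and 2 members, Bcl2l1 and Pmaip1, had an unadjusted p under 0.05, where 9.46% of all genes had one. The arrays of both groups did not overlap for 4, 5 and 4 members in the 3 comparisons in that order, where 42.3%, 42.2% and 15.2% of all genes did not. One called member of 9 is near the share of all genes in the first and second comparisons, so these counts are no result about the family as a group. The first and second comparisons share the TNC + vehicle arrays, so an opposite direction in them is not independent evidence.

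**Figure D1:**
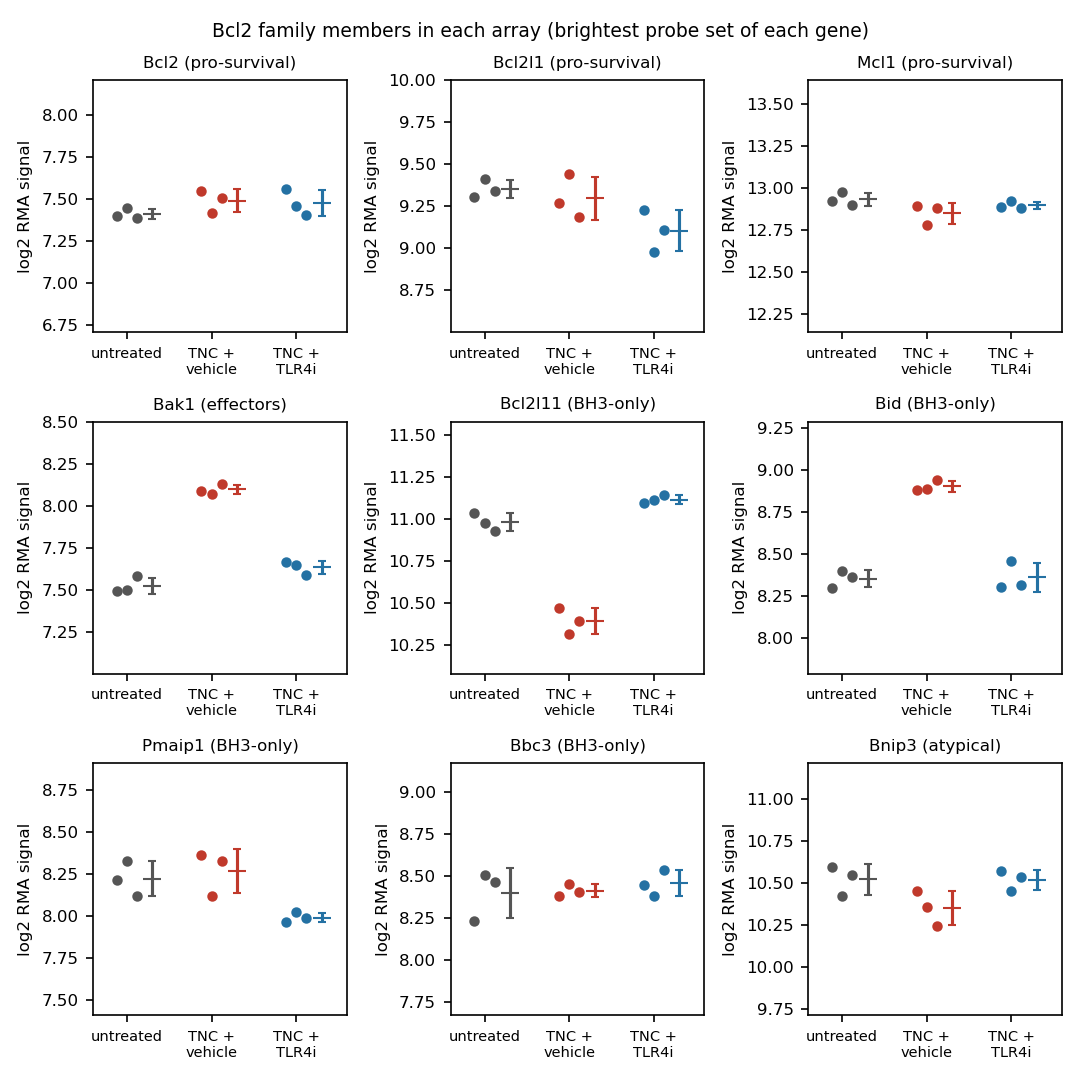
Log2 RMA signal (y axis, 1 panel per gene, equal spans) of the brightest probe set of the 9 measured members in each array, with points for arrays, the horizontal mark for the group mean and the bar for 1 SD (n = 3). Bak1 and Bid lie higher, and Bcl2l11 lower, in all 3 TNC + vehicle arrays than in the other 6.

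The pro-survival genes came first in the order of roles. Bcl2 was measured by 5 probe sets, of which 3 lay under the array median, and its brightest one gave 7.40, 7.44 and 7.39 in untreated, 7.55, 7.42 and 7.51 in TNC + vehicle and 7.56, 7.46 and 7.41 in TNC + TLR4i cells. The 3 groups overlapped in these values. The difference with TNC was 0.08 on the log2 scale, with a 95% interval from -0.06 to 0.23, and that between inhibitor and vehicle was -0.02, from -0.17 to 0.14. Over the 5 probe sets the difference with TNC ran from -0.09 to 0.19, and the highest of them had a limma adjusted p of 0.0701.

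Bcl2l1, whose longer product Bcl-xL guards the outer mitochondrial membrane, gave different answers in its 4 probe sets. Its brightest one, 1420888_at, was at 9.30, 9.41 and 9.34 in untreated, 9.27, 9.44 and 9.19 in TNC + vehicle and 9.23, 8.98 and 9.11 in TNC + TLR4i cells. Untreated and TNC + vehicle arrays overlapped, with a log2 difference of -0.05 and a 95% interval from -0.23 to 0.12. A dimmer probe set, 1426191_a_at, was at 7.22, 7.38 and 7.17 in untreated, 7.73, 7.71 and 7.67 in TNC + vehicle and 7.03, 7.13 and 7.26 in TNC + TLR4i cells. Here all 3 TNC + vehicle arrays lay above the other 6. The signal rose by 0.45 ± 0.07 on the log2 scale (SE), 1.36-fold (limma adjusted p = 0.000774), and was 0.56 ± 0.07 lower with the inhibitor than with vehicle, 1.48-fold (limma adjusted p = 0.000133). A further probe set, 1420887_a_at, rose by 0.27 ± 0.07 with TNC (limma adjusted p = 0.0114) and was lower by 0.35 ± 0.07 with the inhibitor. The last probe set, 1426050_at, lay under the array median, at a mean of 6.07 over the 9 arrays, and differed by -0.03 with TNC. What transcripts the 4 probe sets read was not analysed here, and no probe set of Bcl2l1 reached 1.5-fold.

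Mcl1, a short-lived guard that myeloid cells depend on, was measured by 6 probe sets. Its brightest one read 12.92, 12.97 and 12.90 in untreated, 12.89, 12.77 and 12.88 in TNC + vehicle and 12.88, 12.92 and 12.88 in TNC + TLR4i cells. The TNC + vehicle arrays lay just below the untreated ones, and the difference of -0.08 had a 95% interval from -0.23 to 0.06. One other probe set, 1416881_at, moved against it and read 11.77, 11.84 and 11.85 in untreated, 12.05, 12.01 and 12.08 in TNC + vehicle and 11.67, 11.74 and 11.68 in TNC + TLR4i cells. In that probe set TNC + vehicle stood above both other groups, by 0.23 ± 0.06 over untreated (SE, limma adjusted p = 0.0253) and by 0.35 ± 0.07 over TNC + TLR4i (limma adjusted p = 0.00161). The remaining 4 probe sets differed by -0.12 to -0.03 with TNC and did not pass. Of the 6, 3 carry the array maker's mark for probes that may also bind other transcripts, the brightest one included.

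Bak1, the effector that sits in the outer mitochondrial membrane, was at 7.49, 7.50 and 7.58 in untreated, 8.09, 8.07 and 8.13 in TNC + vehicle and 7.67, 7.64 and 7.59 in TNC + TLR4i cells. All TNC + vehicle arrays were above the other 6. Bak1 rose by 0.57 ± 0.06 with TNC (SE), 1.49-fold (limma adjusted p = 4.33e-05), just under the minimum fold. With the inhibitor it was 0.46 ± 0.07 lower than with vehicle, 1.38-fold (limma adjusted p = 0.0002). The TNC + TLR4i arrays still lay above the untreated ones, by 0.11 with a 95% interval from -0.03 to 0.25 (limma adjusted p = 0.72). The second Bak1 probe set rose by 0.48 with TNC and was 0.41 lower with the inhibitor, so both probe sets of Bak1 passed in the same directions. Without TNC + vehicle replicate 1 the values were 0.58 and -0.47.

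Bcl2l11 encodes Bim, which binds every pro-survival member and sets off the death of myeloid and lymphoid cells that lose growth factors. Its brightest probe set read 11.04, 10.98 and 10.93 in untreated, 10.47, 10.31 and 10.39 in TNC + vehicle and 11.09, 11.11 and 11.14 in TNC + TLR4i cells. The 3 groups did not overlap, with TNC + vehicle lowest and TNC + TLR4i highest. Bcl2l11 fell by 0.59 ± 0.07 on the log2 scale with TNC (SE), just past the minimum fold (limma adjusted p = 6.35e-05), and was 0.72 ± 0.07 higher with the inhibitor than with vehicle, 1.65-fold (limma adjusted p = 7.83e-06). The inhibitor group stood 0.13 above untreated, with a 95% interval from -0.00 to 0.27 (limma adjusted p = 0.619). So the order of the group levels was TNC + TLR4i, untreated, TNC + vehicle, and the upper pair did not differ by this test.

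The other 4 probe sets of Bcl2l11 were all lower with TNC, by -0.34, -0.33, -0.30 and -0.17, and higher with the inhibitor, by 0.43, 0.49, 0.37 and 0.26. With TNC 2 of these 4 passed the test, and the limma adjusted p of the other 2 was 0.0798 and 0.0954, while all 4 passed between inhibitor and vehicle. None of the 4 reached 1.5-fold, and with the mean of the 5 probe sets in place of the brightest the differences were -0.34 with TNC and 0.46 between inhibitor and vehicle, and both calls were lost. Under cyclic loess the difference with TNC was -0.51 and was not called. Leaving out 1 array could also end the call, since the log2 difference was -0.56 without untreated replicate 1 and -0.55 without TNC + vehicle replicate 2. Without TNC + vehicle replicate 1 it was -0.63, and 0.76 between inhibitor and vehicle.

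Bid, a BH3-only protein that caspase-8 cuts to carry a death receptor signal to the mitochondrion, was at 8.30, 8.40 and 8.36 in untreated, 8.88, 8.89 and 8.94 in TNC + vehicle and 8.31, 8.46 and 8.32 in TNC + TLR4i cells. TNC + vehicle arrays lay above all others, and the other 2 groups overlapped. Bid rose by 0.55 ± 0.06 with TNC (SE), 1.46-fold (limma adjusted p = 6.41e-05), and was 0.54 ± 0.07 lower with the inhibitor, 1.46-fold (limma adjusted p = 0.000104). Between inhibitor and untreated the difference was 0.01, with a 95% interval from -0.14 to 0.16. The other 2 probe sets of Bid rose by 0.37 and 0.41 and were 0.39 and 0.43 lower with the inhibitor, so all 3 passed in the same directions. Without TNC + vehicle replicate 1 the values of the brightest probe set were 0.56 and -0.55.

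**Figure D2:**
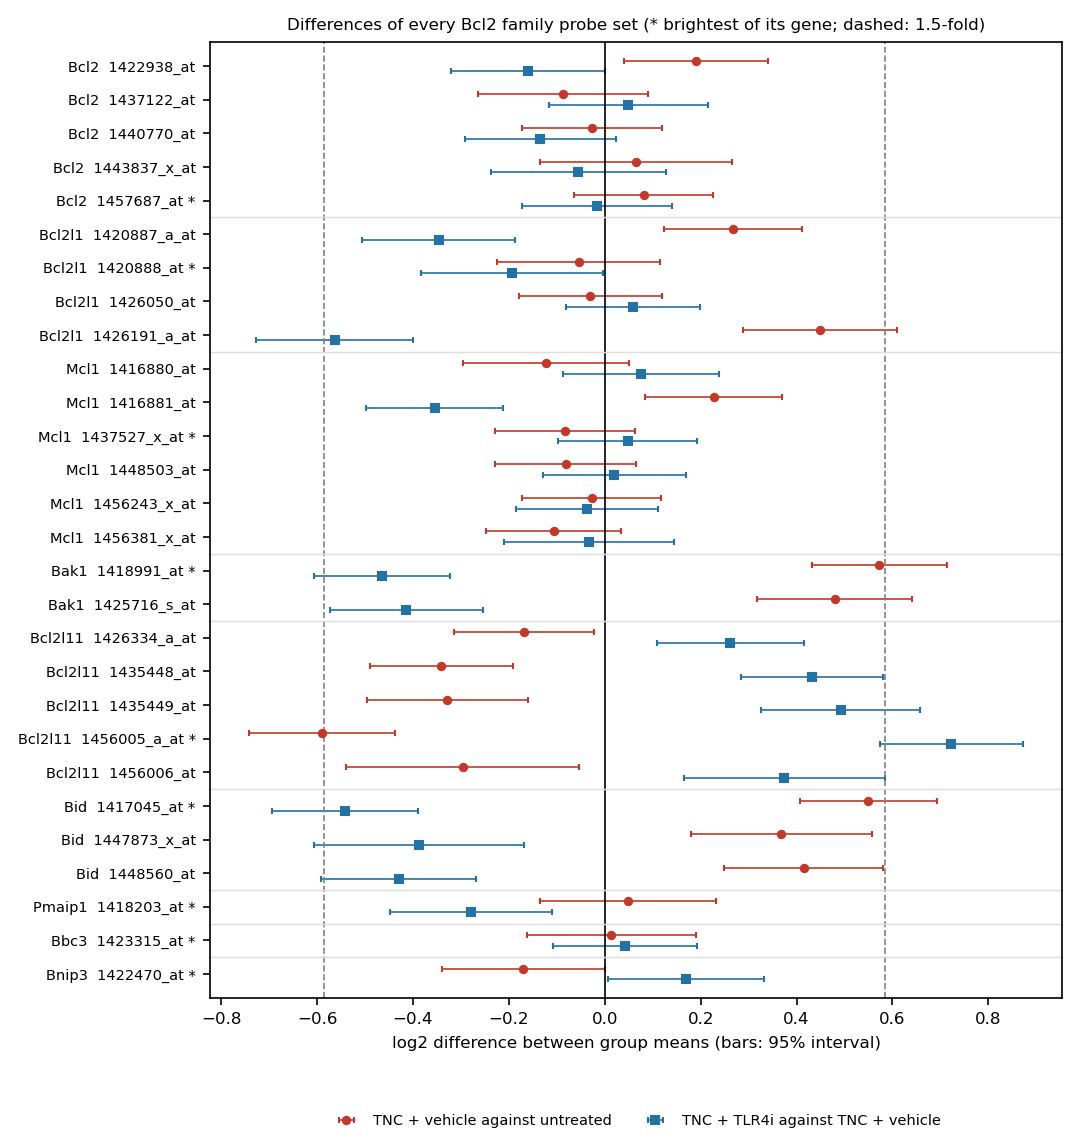
Log2 difference (x axis) of each of the 28 probe sets of the family (y axis) for TNC + vehicle against untreated (red circles) and TNC + TLR4i against TNC + vehicle (blue squares), with 95% intervals from limma as bars and dashed lines at 1.5-fold. All probe sets of Bak1 and Bid lie to the right with TNC and all 5 of Bcl2l11 to the left, while probe sets of Bcl2l1 and of Mcl1 lie on both sides of 0.

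Of the 28 probe sets, 11 passed the limma test with TNC, where 22.8% of all probe sets did, 8 of them higher and 3 lower. Between inhibitor and vehicle 14 passed, where 23.0% of all probe sets did, 5 higher and 9 lower. Probe sets of 1 gene read the same transcripts in part and are not separate observations. Between inhibitor and untreated 0 of the 28 passed by limma, where 0.597% of all probe sets did, and 4 had an unadjusted p under 0.05, where 8.24% of all probe sets had one.

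Pmaip1 encodes Noxa, a BH3-only protein that acts mainly against Mcl1. It read 8.21, 8.33 and 8.12 in untreated, 8.36, 8.12 and 8.33 in TNC + vehicle and 7.96, 8.02 and 7.99 in TNC + TLR4i cells. The inhibitor arrays were the lowest of the 9, while the other groups overlapped. The difference with TNC was 0.05, with a 95% interval from -0.14 to 0.23. With the inhibitor Pmaip1 was 0.28 ± 0.08 lower than with vehicle (SE), 1.21-fold (limma adjusted p = 0.0205), and the difference from untreated was -0.23, from -0.38 to -0.08, with a limma adjusted p of 0.296. The pass between inhibitor and vehicle was lost without TNC + vehicle replicate 1, where the difference was -0.23 (limma adjusted p = 0.0679), and also without TNC + vehicle replicate 3 (limma adjusted p = 0.0747), TNC + TLR4i replicate 1 (limma adjusted p = 0.0721) or TNC + TLR4i replicate 3 (limma adjusted p = 0.0609).

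Bbc3 encodes Puma, which p53 and FOXO proteins are known to induce. It read 8.23, 8.50 and 8.46 in untreated, 8.38, 8.45 and 8.40 in TNC + vehicle and 8.45, 8.38 and 8.54 in TNC + TLR4i cells. The groups overlapped in all comparisons, and the difference with TNC was 0.01, with a 95% interval from -0.16 to 0.19, which leaves out a change of 1.5-fold. Bnip3, the atypical member, read 10.60, 10.42 and 10.55 in untreated, 10.45, 10.36 and 10.25 in TNC + vehicle and 10.57, 10.46 and 10.54 in TNC + TLR4i cells. Its difference was -0.17 with TNC (limma adjusted p = 0.151) and 0.17 between inhibitor and vehicle (limma adjusted p = 0.138), and the inhibitor arrays lay just above the TNC + vehicle arrays.

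The sequences before the gene starts are shown for the members that moved most at the brightest probe set, Bcl2l11, Bak1 and Bid, and for Bbc3, which shares a motif with Bcl2l11 and did not pass. They are the 250 bases before a RefSeq start in GRCm38.p6, written 5′ to 3′ in the sense of the gene. Motifs were chosen after the values were seen and were searched on both strands: the FOXO core GTAAACA, the kappaB motif, the interferon-stimulated response element and the hypoxia response element core ACGTG. Capitals mark the FOXO core, read as TGTTTAC where it lies on the other strand. Bcl2l11 lies at chr2:128125788-128126037 on the plus strand, Bbc3 at chr7:16310011-16310260 on the plus strand, Bak1 at chr17:27028628-27028877 on the minus strand and Bid at chr6:120916825-120917074 on the minus strand.
Bcl2l11: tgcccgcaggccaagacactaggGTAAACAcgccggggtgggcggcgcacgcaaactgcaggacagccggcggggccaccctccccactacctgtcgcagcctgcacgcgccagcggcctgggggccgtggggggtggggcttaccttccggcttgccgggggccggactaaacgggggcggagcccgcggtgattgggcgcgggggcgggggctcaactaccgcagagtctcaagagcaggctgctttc
Bbc3: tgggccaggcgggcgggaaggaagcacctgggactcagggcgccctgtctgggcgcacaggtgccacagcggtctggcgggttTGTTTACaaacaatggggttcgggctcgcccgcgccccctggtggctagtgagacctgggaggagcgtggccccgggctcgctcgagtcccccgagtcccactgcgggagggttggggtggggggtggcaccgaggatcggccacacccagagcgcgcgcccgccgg
Bak1: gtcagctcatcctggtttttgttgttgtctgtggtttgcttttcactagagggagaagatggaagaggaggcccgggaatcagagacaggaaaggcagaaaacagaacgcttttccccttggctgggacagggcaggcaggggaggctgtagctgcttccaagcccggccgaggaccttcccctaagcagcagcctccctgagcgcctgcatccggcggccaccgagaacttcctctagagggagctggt
Bid: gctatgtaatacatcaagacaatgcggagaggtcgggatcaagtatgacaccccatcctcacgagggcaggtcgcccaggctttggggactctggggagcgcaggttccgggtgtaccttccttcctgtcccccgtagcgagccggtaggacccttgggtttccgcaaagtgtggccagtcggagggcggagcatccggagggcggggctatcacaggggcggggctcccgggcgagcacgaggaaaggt

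The FOXO core began 227 bases before the Bcl2l11 start and 167 bases before the Bbc3 start, and 3.17% of all 32851 promoter windows of that length hold it. It was found in 1 of the 2 windows of Bcl2l11 and 1 of the 3 windows of Bbc3. The windows of Bak1 and Bid held none of the 4 motifs. The kappaB motif, in 7.25% of all windows, was found in 1 window each of Bcl2l1 and Bbc3, and the hypoxia core, in 16.6% of all windows, in windows of Bax, Bbc3 and Bnip3. The interferon element, in 2.98% of all windows, was found in none of the 14 windows searched, which cover 9 members and not Pmaip1. A match describes letters and does not show binding. Of the 2 genes with a FOXO core, Bcl2l11 differed by -0.59 and Bbc3 by 0.01 with TNC.

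Other genes of the pathway were read from 7 lists, written with earlier results of these data known, and the genes named below are the most changed called ones of each list. Of 12 measured other family members, 1 was called with TNC, and 11 did not pass. It was Bmf, a BH3-only gene whose protein is tied to the cytoskeleton: it was at 9.22 ± 0.13 (SD, n = 3) in untreated, 7.63 ± 0.13 in TNC + vehicle and 9.17 ± 0.16 in TNC + TLR4i cells. Bmf fell 3.01-fold with TNC (limma adjusted p = 1.39e-07) and was 2.90-fold higher with the inhibitor than with vehicle (limma adjusted p = 1.68e-07), although its 3 probe sets ranged from -1.59 to 0.01 with TNC. The median difference of this list was 0.03 with TNC. The 3 probe sets shared by copies of Bcl2a1 carry several genes in the platform table and were not used.

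Downstream of the mitochondrion, 1 of 10 measured apoptosome and caspase genes was called higher with TNC, 1 lower, 5 passed under the minimum fold and 3 did not pass. Cycs, the gene of cytochrome c, rose by 0.78 (limma adjusted p = 8.67e-06), with its 4 probe sets between -0.03 and 1.02. Casp6, an executioner caspase, fell by 0.92 (limma adjusted p = 1.25e-05), with its 2 probe sets at -0.92 and -0.08. The median of this list was -0.18 with TNC and 0.18 between inhibitor and vehicle. In that second comparison Casp6 and Casp2 were called higher and Cycs lower.

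Of 7 inhibitors of apoptosis, 2 were called higher with TNC, 1 passed under the minimum fold and 4 did not pass. Birc3 and Birc2, ubiquitin ligases that restrain cell death downstream of the TNF receptor, rose by 0.96 (limma adjusted p = 1.47e-06) and 0.93 (limma adjusted p = 1.42e-06), with the 2 probe sets of Birc3 at 0.43 and 0.96. Both were lower with the inhibitor, by -1.07 and -0.86. The median of the list was 0.16 with TNC and -0.20 between inhibitor and vehicle. Among 6 genes that control the turnover of Mcl1 protein, 1 was called: Marchf5, a ubiquitin ligase of the mitochondrial outer membrane, rose 2.37-fold (limma adjusted p = 1.56e-07), with its 4 probe sets between 0.32 and 1.34, and was lower by -1.37 with the inhibitor.

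The regulators known to drive BH3-only genes were mixed in direction. Of 9 FOXO and stress regulators, 1 was called higher with TNC, 3 lower, 3 passed under the minimum fold and 2 did not pass, with a list median of -0.20. Foxo3, a transcription factor known to induce Bcl2l11 and Bbc3, was at 10.24 ± 0.15 (SD, n = 3) in untreated, 9.27 ± 0.06 in TNC + vehicle and 10.26 ± 0.12 in TNC + TLR4i cells. It fell by 0.96 ± 0.08 with TNC (SE, limma adjusted p = 4.85e-06), with its 3 probe sets between -0.96 and -0.05, and was 0.99 higher with the inhibitor. Jun and E2f1 fell by 0.61 and 0.60, E2f1 with 3 probe sets between -0.65 and -0.04, and Irf1, a factor of the interferon response, rose by 1.32. With the inhibitor Foxo3 and E2f1 were called higher and Irf1 lower, and without TNC + vehicle replicate 1, an alternative added after that array's markers were seen, Foxo1 and Jun were called higher as well. The 4 probe sets of Foxo1 lay between -0.43 and 0.25 with TNC, its brightest one at -0.43.

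Of 12 measured p53 pathway genes, 1 was called higher with TNC, 3 lower, 2 passed under the minimum fold and 6 did not pass, with a list median of 0.01. Cdkn1a, which encodes the cell cycle inhibitor p21, rose by 1.42. Trp53inp1, Sesn1 and Zmat3, all known targets of p53, fell by 1.40, 0.69 and 0.68. Between inhibitor and vehicle Cdkn1a was called lower and Trp53inp1 higher, and without TNC + vehicle replicate 1 Zmat3 and Gadd45a were called higher as well. Of 12 measured hypoxia targets, the set to which Bnip3 also belongs, 2 were called lower with TNC, 3 passed under the minimum fold and 7 did not pass. These were Adm, the gene of the vasodilator adrenomedullin, which fell by 1.17, and Ndrg1, which fell by 1.01, and the list median was 0.05.

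**Figure D3:**
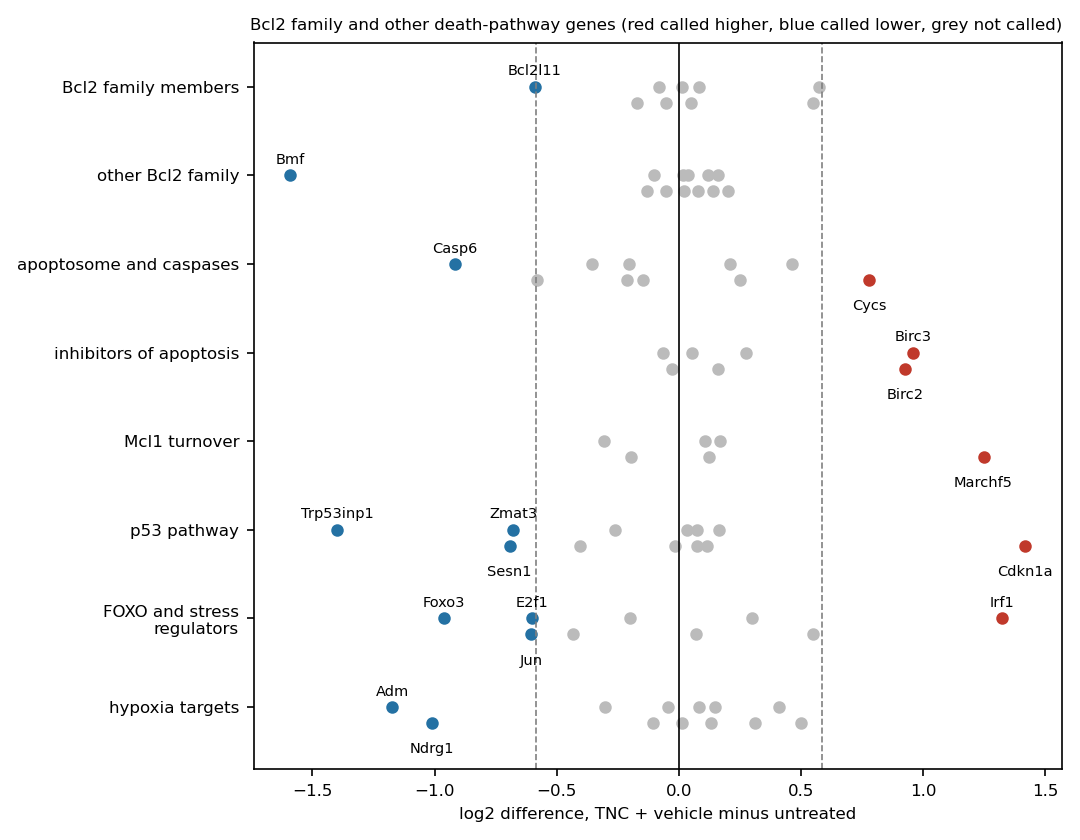
Log2 difference of TNC + vehicle minus untreated (x axis) for the 9 measured members and the genes of 7 other lists (y axis), 1 point per gene, with dashed lines at 1.5-fold and called genes in red (higher) or blue (lower) with their names. Bcl2l11 lies at -0.59 next to the dashed line, and Bmf, another BH3-only gene, lies at -1.59.

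In TNC + TLR4i against untreated, limma called 0 genes of these 7 lists. One of them passed under the minimum fold, the p53 pathway gene Gadd45a, a stress-induced growth arrest gene chosen here after its value was seen, with a difference of 0.58 (limma adjusted p = 0.0022). Across the 68 measured genes of the 7 lists 16 were called with TNC, 6 higher and 10 lower, where 7.78% of all genes were called, and all 16 were called without TNC + vehicle replicate 1 too. Between inhibitor and vehicle 15 were called, where 8.30% of all genes were, and 19 without that array. Since the lists were written with earlier results known, nothing is read from these shares.

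The genes whose signal followed that of Bcl2l11 most closely over the 9 arrays were Sod1, Abhd12 and Mis18a, at Pearson r of 0.998, 0.998 and 0.997. The coefficients are a description over arrays of 3 groups that stand apart in these genes. Sod1, a superoxide dismutase, differed by -0.64 with TNC and 0.78 between inhibitor and vehicle, Abhd12, a lipase, by -0.63 and 0.78, and Mis18a, a centromere protein, by -0.84 and 0.97.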

How the data were processed

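RNA of 9 BMDM cultures was hybridised to Affymetrix Mouse Genome arrays, 3 per group. The authors normalized them by RMA in Chipster 3.8.0, per the submitters' processing notes and the study's methods, and deposited the result as log2 signals. RMA quantile-normalizes the arrays, would hide a change of total RNA and understates the fold of dim probe sets. Values ran from 5.44 to 14.69, array medians from 6.72 to 6.74, and the number of arrays limits the precision.

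Of 45101 probe sets, 64 array controls were left out. The platform table gave 34945 of the other 45037 a single gene, 932 several and 9160 none. The brightest probe set by mean over all arrays stood for a gene. The tests were two-sided and used limma 3.58.1 under R 4.3.3 (lmFit, eBayes), on the 6 arrays of both groups, with Benjamini-Hochberg adjustment over all 45037 probe sets. The labels name biological replicates. Since separate mice are not stated, p-values measure the spread between these arrays, and whether it includes a spread between mice is not known. The fit was tested on simulated data. Signals of different member probe sets are not compared as levels of expression, and marker means only place cell type markers against the array median.

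The members, lists, thresholds and motifs were chosen with earlier results of these data known. Named were all members with all probe sets, up to 4 called genes of each pathway list by size with TNC, the 3 genes most like each called member, Tnf, Tlr4 and markers beside a result. Alternatives were a replicate block, 1 fit over 9 arrays, the removal of dim probe sets, cyclic loess, centred medians, robust eBayes with a trend, the mean of or any of a gene's probe sets, other minimum folds, and each array left out in turn.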

Additional observations from a re-analysis of the deposited data

How the results depend on the processing

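The counts of members called, 1 with TNC, 1 between inhibitor and vehicle and 0 between inhibitor and untreated, stayed within 1.5 times in 37 of 48 recomputed counts, 1 for each comparison and alternative. A count of 0 that remained 0 was taken as staying. The 37 thus include every count between inhibitor and untreated, which was 0 under all alternatives, and the counts that moved were all in the other comparisons. With TNC the count was 0 under cyclic loess, where Bcl2l11 differed by -0.51, and when probe sets were averaged per gene it was 0 both with TNC and between inhibitor and vehicle. Without a minimum fold it was 3 with TNC (Bak1, Bcl2l11 and Bid) and 4 between inhibitor and vehicle (Pmaip1 as well), and with a minimum fold of 2 it was 0 in both. With each array left out in turn it ran from 0 to 2 with TNC, from 1 to 2 between inhibitor and vehicle and from 0 to 0 between inhibitor and untreated. It was 0 without untreated replicate 1 or TNC + vehicle replicate 2, and 2 without untreated replicate 3 (Bak1 as well) or, between inhibitor and vehicle, without TNC + TLR4i replicate 2 (Bid as well). The causes were not tested, beyond that Bcl2l11, Bak1 and Bid lie near the minimum fold.

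Replicate numbers did not pair the arrays: deviations of same-numbered arrays correlated at -0.0961 to 0.136, and with the replicate as a block the counts were 1, 1 and 0. Some of the 351 recomputed differences of single members could not change. A replicate block, 1 fit over 9 arrays, the removal of dim probe sets and robust eBayes with a trend do not alter a difference. Averaging does not alter that of a gene with 1 probe set. Differences changed sign in 19 of the 351, in 0 cases at an adjusted p under 0.05. Under cyclic loess these were Mcl1, at 0.021 with TNC and -0.067 between inhibitor and vehicle, and Bid between inhibitor and untreated, at -0.0070. With averaged probe sets they were Bcl2l1 with TNC at 0.16, Mcl1 between inhibitor and vehicle at -0.047, and, between inhibitor and untreated, Bcl2 at -0.019 and Bid at -0.0085. With averaged probe sets Bcl2l1 also passed between inhibitor and vehicle, at -0.26 (limma adjusted p = 0.0079), which its brightest probe set did not. With each array left out in turn, differences with TNC ran from -0.071 to 0.066 for Bbc3, -0.00084 to 0.12 for Pmaip1 and -0.13 to 0.00085 for Bcl2l1, that between inhibitor and vehicle from -0.058 to 0.018 for Bcl2, and those between inhibitor and untreated from -0.028 to 0.11 for Bbc3, -0.041 to 0.035 for Bid and -0.051 to 0.037 for Bnip3. Signal near background limits Bcl2, with 3 of 5 probe sets under the array median, and Bcl2l1, with 1 of 4.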
